A study of Mus musculus with 10 samples.

Results

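The profile of metastasis-associated macrophages (MAMs) and its variation between replicates were described from 5 RNA-seq libraries of the 10 in the series, those whose titles name lung metastases. All 5 came from wild type female C57BL6/J mice aged 8 to 10 weeks. The mice had received E0771-LG cells, a line of mouse mammary cancer, by tail vein injection at 6 to 8 weeks of age, and no other treatment is given. On day 11 metastases under 1 mm in diameter were dissected from the lungs, pooled from 2 to 4 mice for a sample, and digested in the presence of alpha-amanitin and actinomycin D, which block transcription. MAMs were then sorted as large CD45+F4/80+LY6C-MRC1+ cells that were CD11B+ and CD11C-. The study's methods give a wider range for the number of mice pooled than the labels do. A library is thus the average over a pool of animals and of metastases, and the spread between libraries is not the spread between single mice. The labels name no litter, day or batch for a library, so such sources of spread were not tested.

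Macrophages of lung metastases are largely descended from blood monocytes that enter the growing lesion. They engulf debris and dying cells, break down the cargo in lysosomes, display peptides on major histocompatibility complex (MHC) molecules and secrete chemokines, growth factors and matrix proteins. Other macrophages of the chest, among them those of the airspaces, of the lung interstitium and of the pleural cavity, carry partly overlapping sets of transcripts.

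Between 47619714 and 75032981 counts per library were used, after lines naming no gene and the ribosomal RNA gene Rn45s had been dropped. Rn45s alone held 13.8%, 12.5%, 14.03%, 12.1% and 14.3% of the counts on genes in replicates 1 to 5. Levels are given as CPM, each gene's count as a share of the counts used in its library, scaled to a total of 1000000. A count of at least 1 was recorded for 14733 to 15183 genes per library, out of 24537 listed, and 13268 genes had a count in every library. Mean CPM reached 10 for 7959 genes, which held 98.2% of the counts.

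The identity of the sorted cells was checked through the genes behind the sort and those of the macrophage lineage. CD11B, encoded by Itgam, was at 5856, 6213, 5492, 5595 and 5707 CPM in replicates 1 to 5. Mrc1 and Adgre1, which encode the mannose receptor and F4/80, ran from 1065 to 1457 CPM and from 211 to 318 CPM. The CD45 gene Ptprc differed little between libraries, at 876 to 927 CPM. Itgax, the gene of CD11C, on which the cells were sorted as negative, was detected in every library, with 215, 138, 136, 144 and 151 CPM in replicates 1 to 5. It was highest in replicate 1 and nearly level in the other 4, and its SD on the log2 scale of 0.27 was 0.07 without replicate 1. Ly6c2 ran from 2.51 to 14.5 CPM and Ly6c1 from 0.164 to 4.87 CPM. These 2 genes are near-identical, so the division of reads between them is uncertain.

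C1qa, a chain of the first complement component that macrophages secrete, had 909, 783, 721, 657 and 664 CPM in replicates 1 to 5. Aif1, an actin-binding protein of activated macrophages, had 156, 117, 185, 216 and 182 CPM in replicates 1 to 5. Replicate 2 was lowest and replicate 4 highest for this gene, and without replicate 2 its SD on the log2 scale was 0.19 in place of 0.33. Ccr2, the receptor through which monocytes respond to CCL2, had 466, 443, 312, 369.7 and 451 CPM in replicates 1 to 5. All 12 genes of the macrophage marker list had a mean of at least 10 CPM, among them Csf1r (1042 ± 82.8 CPM), Cd68 (1764 ± 205 CPM) and Mertk (247 ± 36.4 CPM, SD, n = 5). The sum of the list was 12253, 12528, 12046, 12306 and 12175 CPM in replicates 1 to 5, a highest-to-lowest ratio of 1.04. The list holds Itgam and Adgre1, on which the cells were sorted, so its level was in part set by the sort. Without Itgam, its gene of most counts, the ratio was 1.06. Genes of the list outside the sort were also detected in all 5 libraries, the lowest being Cx3cr1 (16.0 ± 4.05 CPM). Xist, expressed from the inactive X chromosome, had 2356 ± 117 CPM, as in female cells. The Y-linked genes Ddx3y, Uty and Eif2s3y had a count of 0 in every library, which allows at most 0.0630 CPM in the smallest library for counting error alone. Kdm5d, also Y-linked, was at 0.0133 CPM in replicate 5 and at 0 in the other 4.

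Before single genes are described, the libraries were compared with each other. In each pair, genes with a mean of at least 10 CPM were counted when their log2(CPM + 1) differed by over 1, which is about 2-fold. The fewest lay between replicates 3 and 4, with 98 of 7959 genes (1.23%), and between replicates 3 and 5, with 102 (1.28%). Replicates 1 and 2 were apart in 137 genes (1.72%), and replicates 4 and 5 in 145 (1.82%). Between replicate 2 and replicates 3, 4 and 5 there were 174 (2.19%), 278 (3.49%) and 189 (2.37%). Between replicate 1 and replicates 3, 4 and 5 there were 276 (3.47%), 371 (4.66%) and 268 (3.37%), and the 371 between replicates 1 and 4 were the most of any pair. Replicates 1 and 2 were thus closer to each other than either was to the other 3 libraries.

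**Figure D1:**
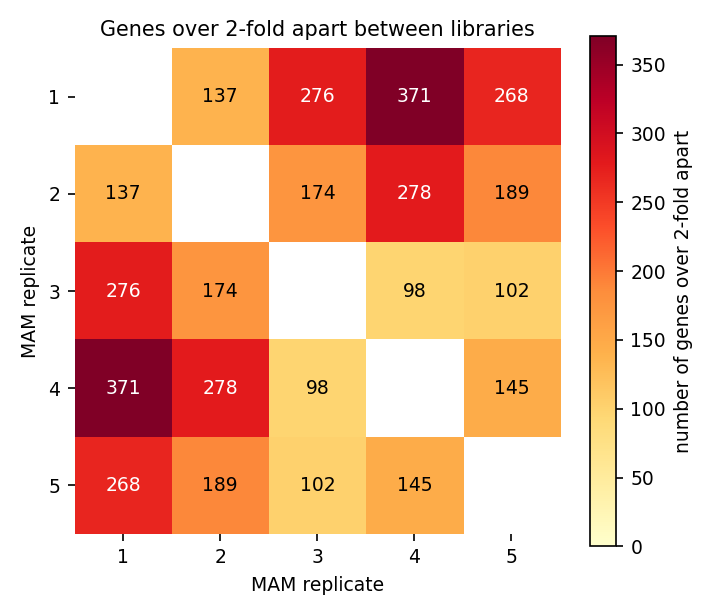
Number of genes, of the 7959 with a mean of at least 10 CPM, whose log2(CPM + 1) differed by over 1 between each pair of MAM libraries. Both axes are replicates 1 to 5, and counts run from 98 between replicates 3 and 4 to 371 between replicates 1 and 4.

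A principal component analysis over the same genes placed 43.3% of the variance on its first component. Replicates 1 and 2 scored 0.66 and 0.38 on it, replicate 5 scored -0.21, replicate 3 -0.28 and replicate 4 -0.55. The second component held 20.5% and set replicates 2 and 5 apart from replicates 1, 3 and 4. Replicate 1 weighs on many of the values that follow. For genes with an SD of at least 0.5 on the log2 scale, and for sums that varied, the SD or ratio is therefore also given without 1 library where leaving that library out moved it by over 1.5 times. The values of genes below that SD, and the SDs in CPM after ±, are over all 5 libraries, and for some of these genes the SD too rests mostly on 1 library.

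Among the most abundant transcripts were genes of lysosomal digestion, iron storage, the actin cytoskeleton and antigen display, beside others of unlike functions such as Malat1, Fn1 and Itgam. The 20 genes with the most counts held 13.3% of all counts and the first 100 held 25.6%. By library the share of those 20 genes was between 12.97% and 13.5%. Malat1, a noncoding RNA retained in the nucleus, took the largest share, with 19991, 22939, 25630.3, 28452 and 23036 CPM in replicates 1 to 5. It was lowest in replicate 1 and highest in replicate 4, a ratio of 1.42. Lyz2, the lysozyme gene of myeloid cells, followed with 20702, 20860.1, 19921, 15002 and 18512 CPM in replicates 1 to 5. Here replicate 4 was lowest and the other 4 libraries were close together. Lyz2 and its copy Lyz1 are near-identical, so the division of reads between them is uncertain.

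**Figure D2:**
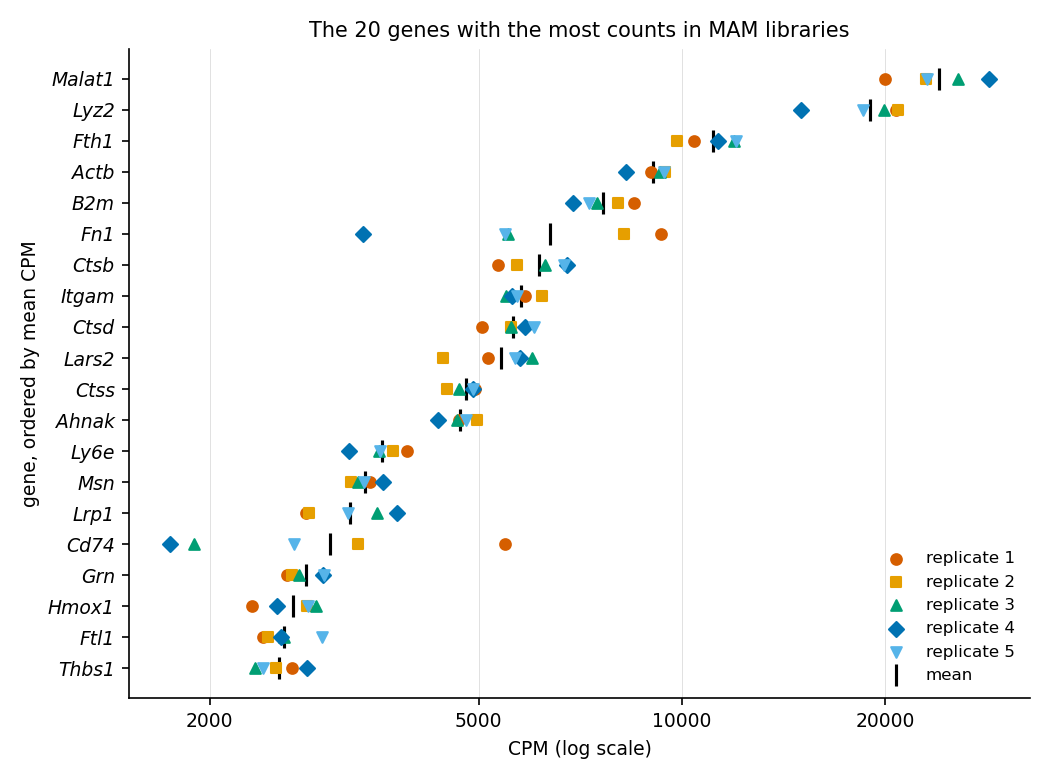
Levels of the 20 genes with the highest mean CPM (log scale) in each of the 5 MAM libraries, with the mean as a bar. Points of most genes lie close together, while Cd74 runs from 1749 to 5469.6 CPM and Fn1 from 3368 to 9309 CPM.

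Ferritin, which stores iron in the cytosol, was represented by both of its chains. Fth1, the heavy chain, had 11109 ± 961 CPM (SD, n = 5), and Ftl1, the light chain, 2579 ± 212 CPM. Hmox1, the heme oxygenase that frees iron from heme, had 2656 ± 237 CPM. The 10 genes of the iron list summed to 1.70% of the counts. Both ferritin genes have many processed copies in the genome, which can take away uniquely mapped reads.

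Lysosomal proteases and their companions formed a larger share. The cathepsin list held 2.23% of the counts, led by Ctsb (6152 ± 616 CPM), Ctsd (5626 ± 374 CPM) and Ctss (4783 ± 189 CPM, SD, n = 5). Cathepsins B and S are cysteine proteases and cathepsin D is an aspartic protease, all active in acid compartments. The 27 other lysosomal genes held 4.24%, of which Lyz2 made up the largest part. Grn, the precursor of the granulins, had 2772 ± 164 CPM. Psap, the precursor of the saposins that assist sphingolipid breakdown, had 2517 ± 235 CPM. Lamp1, a main protein of the lysosomal membrane, had 1579 ± 32.4 CPM.

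Others of the 20 had various functions. Actb, cytoplasmic actin, had 9072 ± 483 CPM, and Msn, which ties actin to the plasma membrane, had 3399 ± 145 CPM. Lrp1, a large endocytic receptor for apoptotic cells and protease complexes, ran from 2778 to 3784 CPM. Ly6e, a small membrane protein induced by interferon, ran from 3217 to 3919 CPM. Ahnak, a giant scaffold protein, had 4688 ± 226 CPM (SD, n = 5). Itgam itself ranked among the first 10 genes by counts. Lars2, the mitochondrial leucyl-tRNA synthetase, had 5404 ± 621 CPM, but a stretch of this gene resembles ribosomal RNA, so that its count is uncertain.

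A gene's count grows with its length, so levels of different genes were compared in the deposited FPKM values, which are scaled by length. Among genes with a mean of at least 10 CPM, Lyz2 had the highest mean FPKM, 19348, followed by Fth1 with 15691, B2m with 10989 and Actb with 6319.9. Ifitm3, an interferon-induced protein that restricts virus entry, came next with 5752 FPKM. Wfdc17 and Tmsb4x, a small secreted protein and the actin-binding thymosin, had 4537 and 4454 FPKM. Fcer1g, the signalling chain shared by Fc receptors, had 3899 FPKM and C1qb 2681. Malat1 had 3273 FPKM and ranked 13 on this scale. Of the 20 genes first by counts, 10 were among the first 20 by FPKM. Long transcripts such as Ahnak (254 FPKM) and Lrp1 (251 FPKM) left that range, ranking 229 and 234.

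Genes of innate immune recognition were also abundant. Of 10 genes of the complement list at 10 CPM, C1qb (2053 ± 224 CPM), C3ar1 (1990.1 ± 283 CPM), the receptor of the C3a fragment, and C1qc (1742 ± 184 CPM) came first (SD, n = 5). C3, the central complement component, had 979, 701, 639.7, 427 and 482 CPM in replicates 1 to 5, with its peak in replicate 1. By the threshold for variable genes given below, which 5.52% of all genes passed, 1 of these 10 genes was variable, C4b, and 2 were without replicate 2 or without replicate 3. The type I interferon-induced list, with genes that block virus entry and growth, held 1.88% of the counts, and 0 of its 37 genes at 10 CPM were variable. Its sums were 21098, 19814, 18058, 17479 and 17372 CPM in replicates 1 to 5. Ifitm3 had 1982 ± 88.3 CPM and Isg15, a ubiquitin-like modifier, 416 ± 101 CPM. Among genes of the MHC class I list, B2m, its light chain, had 8479, 8033, 7481, 6907 and 7275 CPM in replicates 1 to 5. The heavy chains H2-K1 and H2-D1, which have near-identical relatives, had 2320.2 ± 125 CPM and 1649.7 ± 139 CPM. Of the class I genes at 10 CPM, 0 of 12 were variable.

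Scavenger receptors and secreted factors were also among the genes with many counts. Msr1, which takes up modified lipoproteins, had 2158 ± 115 CPM and Cd36, a receptor for long-chain fatty acids, 989.6 ± 131 CPM (SD, n = 5). The chemokines with the most counts were Ccl9 (2367 ± 230.5 CPM), Ccl6 (1712 ± 307 CPM), Cxcl10 (763 ± 135 CPM) and Ccl2 (759.8 ± 73.6 CPM). Ccl9, Ccl6 and Ccl2 attract myeloid cells and Cxcl10 attracts T cells. Il1rn, the natural antagonist of interleukin-1, had 1170.4 ± 197 CPM, and Il1b, a form of interleukin-1, 242 ± 34.7 CPM. Thbs1, a matrix glycoprotein, had 2536 ± 183 CPM, and Vegfa, a growth factor for blood vessels, 199.8 ± 33.9 CPM. Mki67, a gene of dividing cells, was present at 116, 81.0, 103, 97.4 and 105 CPM in replicates 1 to 5. The ribosomal protein list summed to only 0.369% of the counts, with 48 of 85 genes at 10 CPM. These genes have many near-identical copies, and only uniquely mapped reads had been counted.

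Most genes differed little between the libraries. The SD of log2(CPM + 1) over the 5 libraries had a median of 0.20, with quartiles of 0.14 and 0.30. A gene was called variable when this SD was at least 0.5. That was so for 439 of 7959 genes (5.52%), and 17 of them had an SD of at least 1. For 7958 of the 7959 genes the SD was above that of Poisson counts of the same mean. Such counts had a median SD of only 0.044 at 10 to 30 CPM, so spread between pools could hardly fall below it. No conclusion is drawn from this comparison. Spread fell with abundance up to 1000 CPM. The median SD was 0.30 among 2810 genes of 10 to 30 CPM and 0.11 among 480 genes of 300 to 1000 CPM. Above 1000 CPM it was 0.12. Of the 100 genes above 1000 CPM, 6 were variable (6.00%), against 7 (1.46%) in the class below. Those 6 were Fn1, Cd74, Gpnmb, H2-Aa, Lyz1 and Spp1.

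**Figure D3:**
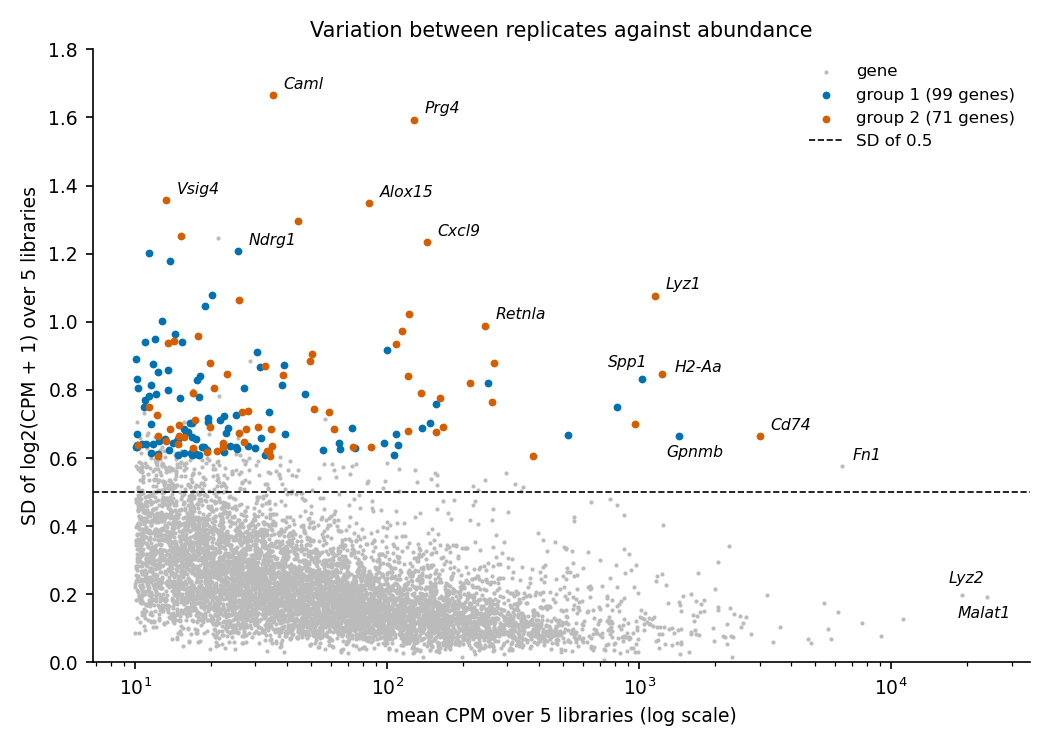
SD of log2(CPM + 1) over the 5 MAM libraries against mean CPM (log scale) for 7959 genes. The dashed line marks an SD of 0.5, and coloured points are the 99 and 71 genes of the main groups that varied together, which include 5 of the 6 variable genes above 1000 CPM.

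For each variable gene the library farthest from the median of the 5 was noted. It was replicate 1 for 168 genes, replicate 4 for 104, replicate 2 for 76, replicate 5 for 52 and replicate 3 for 39. Replicate 1 was the lowest of the 5 in 135 of the 439 genes and the highest in 127. Replicate 4 was the lowest in 124 and the highest in 105. With replicate 1 left out, 388 genes were variable, and replicate 2 was farthest in the most of them (155). The choice of a threshold is marked by the genes on its sides. Sh2d3c had an SD of 0.500062 and was counted, and Zfp456 had 0.499819 and was not. For mean CPM, Zfp277 lay just inside with 10.0026 and Adprm just outside with 9.99931.

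The gene with the largest SD was Caml, a membrane protein of the endoplasmic reticulum that helps insert other proteins. It had 136, 9.87, 6.97, 12.1 and 10.8 CPM in replicates 1 to 5, an SD of 1.66 on the log2 scale. Only replicate 1 was high. Without that library its mean was 9.94 CPM, below the limit of 10, and its SD was 0.31. It was the only gene at 10 CPM whose highest library exceeded the next by over 4 times.

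Next came Prg4, which encodes lubricin, a secreted mucin-like protein of joints and serous surfaces, with 325, 175, 77.6, 19.6 and 39.7 CPM in replicates 1 to 5 (SD 1.59). The gene overlaps Tpr, so some of its reads may be uncertain. Its highest level, in replicate 1, was 16.5 times its lowest, in replicate 4. Vsig4, a receptor for complement C3 fragments, had 37.1, 12.4, 6.64, 8.51 and 1.84 CPM in replicates 1 to 5 (SD 1.36), highest in replicate 1 and lowest in replicate 5. Alox15, a lipoxygenase that oxidises arachidonic acid, had 157, 152, 55.04, 15.8 and 44.3 CPM in replicates 1 to 5 (SD 1.35). Replicates 1 and 2 were the highest for both Prg4 and Alox15, and replicate 4 was the lowest. Cxcl9, an interferon gamma-induced chemokine for activated T cells, had 377, 146, 75.9, 36.9 and 85.3 CPM in replicates 1 to 5 (SD 1.23). Replicate 1 was over 2-fold above any other library, and without it the SD was 0.80. Tmem176a, a membrane protein whose gene overlaps Tmem176b, had 125, 47.4, 13.8, 18.6 and 16.6 CPM in replicates 1 to 5, again highest in replicate 1, and its SD without that library was 0.76.

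Other genes among the 25 most variable ordered the libraries differently. Ndrg1, a gene induced by hypoxia, had 4.58, 15.7, 31.1, 45.5 and 31.2 CPM in replicates 1 to 5 (SD 1.21, or 0.61 without replicate 1). Gdf3, a ligand of the TGF-beta superfamily, had 4.42, 11.3, 23.7, 30.4 and 25.02 CPM in replicates 1 to 5 (SD 1.05, or 0.59 without replicate 1). For both, replicate 1 was lowest, replicate 2 next and replicate 4 highest. Sparc, a protein that binds collagen, had 41.2, 3.71, 31.0, 11.7 and 18.7 CPM in replicates 1 to 5 and fell outside the larger groups described next, with replicate 2 lowest and replicates 1 and 3 highest. Without replicate 2 its SD was 0.77. Nid1, a basement membrane protein, had 4.71, 14.7, 45.5, 19.1 and 16.5 CPM in replicates 1 to 5, highest in replicate 3, and its SD was 0.71 without replicate 1. Cd300e, an activating receptor of myeloid cells, had 5.13, 3.17, 16.4, 30.4 and 13.6 CPM in replicates 1 to 5, highest in replicate 4.

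The remaining genes of the 25 took several courses. Plxdc1, a plexin-like membrane protein, had 2.15, 6.91, 16.8, 5.81 and 25.03 CPM in replicates 1 to 5 (SD 1.202), highest in replicate 5. Ank3, which anchors membrane proteins to the cytoskeleton, had 3.44, 6.36, 14.3, 14.1 and 21.9 CPM in replicates 1 to 5, and the uncharacterised gene 2410002F23Rik 3.98, 4.29, 13.1, 12.1 and 20.99 CPM, both lowest in replicate 1 and highest in replicate 5. Bcat1, an enzyme of branched-chain amino acid breakdown, had 2.85, 9.50, 24.1, 13.8 and 13.5 CPM in replicates 1 to 5, and Tmem119, a membrane protein best known from microglia, 3.35, 12.2, 13.9, 22.1 and 20.2 CPM. In both replicate 1 was far below the others, and without it their SDs were 0.52 and 0.39. Dcstamp, which cells need to fuse into osteoclasts and giant cells, had 50.1, 30.9, 18.5, 6.05 and 23.5 CPM in replicates 1 to 5. Hr, a nuclear corepressor, had 18.6, 28.8, 16.0, 4.26 and 21.1 CPM in replicates 1 to 5, and Serpina3g, a protease inhibitor, 29.8, 15.6, 13.8, 4.57 and 7.54 CPM. In these last 3 genes replicate 4 was lowest, and the SDs of Dcstamp and Hr without it were 0.60 and 0.34. Reads of 2410002F23Rik, which overlaps other genes, are uncertain.

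The 200 genes with the highest SD were then grouped by how similarly they varied over the 5 libraries. Of 6 groups, 3 held at least 10 genes: group 1 with 99, group 2 with 71 and group 3 with 11. Groups 1 and 2 ran in opposite directions. In mean standardised level, group 1 was at -1.11, -0.67, 0.55, 0.69 and 0.54 in replicates 1 to 5. Group 2 was at 1.01, 0.65, -0.19, -1.25 and -0.21. Such groups are formed from the values themselves, so that their direction is a description and carries no test. On average, replicates 1 and 2 were thus low in group 1 and high in group 2, though single genes of both groups departed from this.

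**Figure D4:**
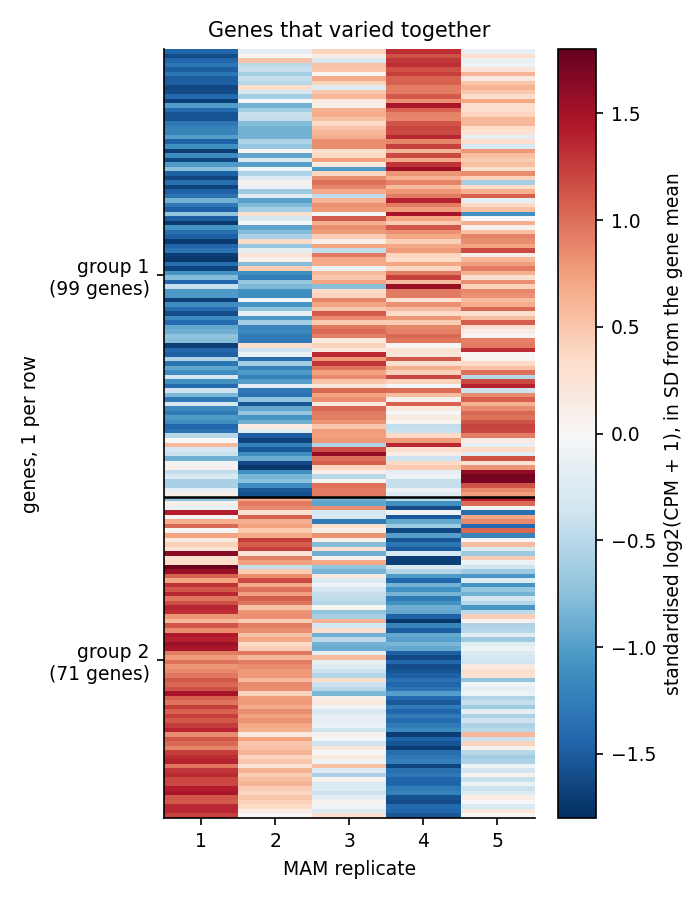
Standardised log2(CPM + 1), in SD from each gene's mean, for the 99 genes of group 1 and the 71 genes of group 2 (1 line per gene) in MAM replicates 1 to 5. Group 1 is mostly blue (low) in replicates 1 and 2, and group 2 is mostly red (high) there and blue in replicate 4.

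Group 2 held 71 of all 7959 genes at 10 CPM. It included 4 of the 7 genes of the MHC class II list at 10 CPM (57.1% of those genes and 5.63% of the group). Its genes summed to 19370.2, 12848, 7173, 5085 and 8875 CPM in replicates 1 to 5, and its highest library was replicate 1 for 53 of 71 genes and its lowest replicate 4 for 58. Without replicate 1 the highest sum was 2.53 times the lowest, against 3.81 with all libraries. Cd74, the invariant chain that guides MHC class II molecules to the endosome, had 5469.6, 3311, 1897, 1749 and 2663 CPM in replicates 1 to 5 (SD 0.67, or 0.43 without replicate 1). H2-Aa, the alpha chain of the class II molecule I-A, had 2482, 1454, 640.0, 621 and 948 CPM in replicates 1 to 5 (SD 0.85). Its partner H2-Ab1 had 1839, 1023, 570.1, 580.2 and 776 CPM in replicates 1 to 5 (SD 0.70, or 0.40 without replicate 1). H2-Eb1, the beta chain of I-E, had 553, 297, 131, 128 and 213 CPM in replicates 1 to 5 (SD 0.88, or 0.58 without replicate 1). In all 4 genes replicate 1 was highest, replicate 2 next and replicate 5 after it, and replicates 3 and 4 were lowest and close together.

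Over the whole MHC class II list, 4 of 7 genes at 10 CPM were variable, against 5.52% of all genes, and the median SD was 0.67, against 0.20. Without replicate 1 the count was 2 of 7 and the median SD 0.40, and without replicate 5 the count was 7 of 7. The list summed to 10783, 6425, 3449, 3297 and 4890.0 CPM in replicates 1 to 5, a highest-to-lowest ratio of 3.27, or 1.95 without replicate 1. The other 3 genes at 10 CPM had smaller SDs, with replicates 1, 2 and 5 again the highest in that order. H2-DMa and H2-DMb1, chains of the molecule that loads peptides, had 151 to 311 CPM and 41.3 to 95.2 CPM. For H2-DMb1 the difference lay in replicate 1, since its SD was 0.48, and 0.14 without that library. Ciita, the coactivator of class II transcription, had 24.5, 18.1, 11.3, 11.7 and 15.2 CPM in replicates 1 to 5 (SD 0.43), highest in replicate 1. In bulk libraries of sorted cells, fewer cells with a transcript and less of it per cell cannot be told apart. The dendritic cell list, whose cells also display class II, had 1 of 13 genes at 10 CPM, Bst2, which is induced by interferon in many cells. Its sums were 267, 254, 238, 219 and 279 CPM in replicates 1 to 5, a ratio of 1.27. Without Bst2 the ratio was 1.78, with replicates 5 and 1 the highest, and the part of such cells in the class II values was not tested. Flt3, Siglech, Zbtb46 and Xcr1 each had a mean of 2.13 CPM or less.

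Promoters of class II genes are known to carry neighbouring elements named X and Y, and the 250 bases before the start of 3 of these genes, all highest in replicate 1, are shown. The sequences are from RefSeq on GRCm38.p6, written 5′ to 3′ on the strand of the gene. Capitals mark the letters CTNGNAAC, followed on the same strand within 60 bases by TGATTGG. Spp1, of group 1, is shown for contrast, and its capitals mark TGATTGG alone. H2-Aa lies at chr17:34287824-34288073 on the minus strand, H2-Eb1 at chr17:34305617-34305866, H2-DMb1 at chr17:34152941-34153190 and Spp1 at chr5:104434861-104435110, these 3 on the plus strand.
H2-Aa: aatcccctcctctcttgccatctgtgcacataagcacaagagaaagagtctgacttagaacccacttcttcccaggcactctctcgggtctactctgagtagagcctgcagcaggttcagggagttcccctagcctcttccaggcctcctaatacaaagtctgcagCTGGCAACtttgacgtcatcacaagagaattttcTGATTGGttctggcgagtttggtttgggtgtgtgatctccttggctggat
H2-Eb1: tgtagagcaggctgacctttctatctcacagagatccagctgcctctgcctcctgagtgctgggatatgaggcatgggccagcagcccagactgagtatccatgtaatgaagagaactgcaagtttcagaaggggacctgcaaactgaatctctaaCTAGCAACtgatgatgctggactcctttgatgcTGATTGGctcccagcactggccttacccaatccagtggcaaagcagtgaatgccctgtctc
H2-DMb1: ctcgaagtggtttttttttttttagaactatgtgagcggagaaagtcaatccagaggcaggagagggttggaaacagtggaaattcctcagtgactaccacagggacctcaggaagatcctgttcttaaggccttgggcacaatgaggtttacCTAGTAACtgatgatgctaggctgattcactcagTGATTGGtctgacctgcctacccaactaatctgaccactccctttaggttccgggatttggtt
Spp1: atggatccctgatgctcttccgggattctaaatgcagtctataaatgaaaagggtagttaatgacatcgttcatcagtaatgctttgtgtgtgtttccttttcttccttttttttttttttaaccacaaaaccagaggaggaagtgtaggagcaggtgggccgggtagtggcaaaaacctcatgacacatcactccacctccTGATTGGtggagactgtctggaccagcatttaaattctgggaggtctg
These letters were chosen after these sequences had been seen, with N at the bases that differed, so their presence here is no finding. The stretches lay 26, 25 and 26 bases apart in H2-Aa, H2-Eb1 and H2-DMb1. Searched on both strands in the same window of 32851 promoters, CTNGNAAC was in 10.9%, TGATTGG in 7.23% and the ordered pair in 0.10% (33). Of the 10 genes of the class II list, 7 had a promoter in the table, and the pair was in 4: H2-Aa, H2-Eb1, H2-DMb1 and H2-Ob. H2-Ob did not share the peak in replicate 1, with 1.40, 3.37, 1.74, 7.42 and 1.77 CPM in replicates 1 to 5, highest in replicate 4. The pair was in 2 of the 47 genes of group 2 with a promoter, H2-Aa and H2-Eb1, and in 0 of 67 of group 1.

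Alongside the class II genes, group 2 held genes known from macrophages of the peritoneal and pleural cavities. Of the 8 genes of the serous cavity list at 10 CPM, 6 were variable, against 5.52% of all genes. Group 2, with 71 of all 7959 genes at 10 CPM, held 5 of the 8 (62.5% of those 8 and 7.04% of the group). These were Prg4, Alox15, Saa3, Icam2 and Selp. Saa3, an acute-phase apolipoprotein, had 425, 361, 214, 112 and 193 CPM in replicates 1 to 5. Selp, the adhesion molecule P-selectin, had 24.7, 18.8, 11.3, 3.86 and 8.61 CPM in replicates 1 to 5. Icam2, an integrin ligand, had 37.5, 29.5, 14.8, 13.3 and 16.4 CPM in replicates 1 to 5. All 3 genes were highest in replicate 1, next in replicate 2 and lowest in replicate 4. The variable member outside the group was Fn1, the matrix protein fibronectin, with 9309, 8204, 5528, 3368 and 5479.7 CPM in replicates 1 to 5 (SD 0.58, or 0.39 without replicate 4). The other genes of the list at 10 CPM were not variable and did not follow that order, and among them Cd5l, a secreted scavenger protein, had 191, 243, 172, 183 and 172 CPM in replicates 1 to 5.

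Summed over the list, serous cavity genes had 11534, 10219, 7223, 5277 and 7329 CPM in replicates 1 to 5, a ratio of 2.19, or 1.31 without Fn1, when replicate 3 and not replicate 4 was the lowest. Gata6, the transcription factor that defines large cavity macrophages, was near the bottom of the measured range, with 3.42, 3.83, 1.09, 0.153 and 0.227 CPM in replicates 1 to 5. Its 2 highest libraries were also replicates 1 and 2. Timd4, a receptor for phosphatidylserine on resident macrophages, had 244, 155, 101, 37.8 and 70.2 CPM in replicates 1 to 5 and ordered the libraries in the same way as Prg4. The part of such cells in the variation of group 2 was not tested.

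Further members of group 2 had various functions. Lyz1 had 2069, 1392, 739.7, 300.4 and 1294 CPM in replicates 1 to 5 (SD 1.08), but without replicate 4 its SD was 0.61, and its reads may be divided with Lyz2. Marco, a scavenger receptor for bacteria and particles, had 348, 290.3, 200.1, 84.2 and 138 CPM in replicates 1 to 5. Retnla, a secreted protein of alternative activation, had 421, 372, 158, 77.2 and 195 CPM in replicates 1 to 5. C4b, the fourth complement component, had 276, 216, 142, 82.7 and 116 CPM in replicates 1 to 5. Serpinb2, an inhibitor of plasminogen activators, had 181, 186, 87.8, 35.4 and 82.1 CPM in replicates 1 to 5 (SD 0.97, or 0.64 without replicate 4). In each of these 5 genes replicates 1 and 2 were the highest and replicate 4 was the lowest.

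Group 1 ran the other way. Its genes summed to 3208, 4458, 8726, 9426 and 8305 CPM in replicates 1 to 5, a ratio of 2.94, or 2.11 without replicate 1. The lowest library was replicate 1 for 66 of 99 genes and replicate 2 for 31. The highest was replicate 4 for 43, replicate 5 for 30 and replicate 3 for 26. Reads on no gene feature made up 38.3%, 41.4%, 42.1%, 43.1% and 38.8% of the total in replicates 1 to 5. The nuclear noncoding RNA list summed to 23515.5, 26727, 29865, 32566 and 26994 CPM in the same order. Both were lowest in replicate 1 and highest in replicate 4, as was the sum of group 1. For the list this order was that of Malat1, which made up most of the list's sum. Other genes of the list did not share it, and Neat1, Snhg1 and Kcnq1ot1 were highest in replicates 3, 1 and 2. The part of library quality in groups 1 and 2 was not tested. Gpnmb, a glycoprotein of lysosomes and melanosomes, had 729, 909, 1930.0, 2033 and 1564 CPM in replicates 1 to 5 (SD 0.67). Spp1, the secreted phosphoprotein osteopontin, had 398, 615, 1369, 1359 and 1366 CPM in replicates 1 to 5 (SD 0.83). For Spp1, replicates 3 to 5 were nearly level, and the highest was 3.44 times replicate 1. Fabp5, a carrier of fatty acids, had 50.6, 74.4, 138, 145 and 135 CPM in replicates 1 to 5. These 3 were the members of the lipid-associated list in group 1, which held 99 of all 7959 genes at 10 CPM. They were 18.8% of the 16 genes of that list at 10 CPM and 3.03% of the group. They were also the variable genes of that list, against 5.52% of all genes.

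The rest of the lipid-associated list varied less. Apoe, which carries lipids out of the cell, had 631, 595, 1035, 1159 and 946 CPM in replicates 1 to 5 (SD 0.43). Trem2, a lipid-sensing receptor, had 78.5, 69.1, 103, 127 and 117 CPM in replicates 1 to 5 (SD 0.37). For both genes, replicates 1 and 2 were below replicates 3, 4 and 5, though the SD was under 0.5. Cd36 and Lipa, the lysosomal acid lipase, were instead highest in replicates 1 and 2, at 781 to 1120.1 CPM and 908 to 1061 CPM over all libraries. The list summed to 17619.5, 19120.0, 22023, 23076 and 22542 CPM, a ratio of 1.31.

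Further members of group 1 had various functions. Cd93, a receptor of the C-type lectin family, had 356, 532, 1030.5, 1288 and 872 CPM in replicates 1 to 5 (SD 0.75). Ms4a7, a tetraspan protein of macrophages, had 103, 144, 348, 357 and 306 CPM in replicates 1 to 5 (SD 0.82). Cbr2, a carbonyl reductase, had 33.8, 77.0, 109.7, 199.7 and 77.7 CPM in replicates 1 to 5 and was highest in replicate 4. Mmp8, a collagenase, had 17.8, 16.7, 43.2, 60.7 and 56.4 CPM in replicates 1 to 5, so that replicates 3 to 5 were over 2-fold above replicates 1 and 2. Il10, an anti-inflammatory cytokine, had 9.18, 8.03, 23.5, 22.6 and 17.3 CPM in replicates 1 to 5, highest in replicates 3 and 4. Fosb, a transcription factor induced within minutes of a stimulus, had 50.1, 65.1, 130.3, 92.7 and 145 CPM in replicates 1 to 5. It was the 1 variable gene of 25 immediate early genes at 10 CPM, a share near the 5.52% of all genes.

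Some genes of group 1 also serve as markers of other cells. Pf4 and Ppbp, platelet chemokines that macrophages can also express, had 245, 368, 600.2, 671 and 732 CPM in replicates 1 to 5 and 63.3, 105, 136, 143 and 237 CPM in the same order. Both were lowest in replicate 1 and highest in replicate 5, and the SD of Pf4 was 0.67, or 0.44 without replicate 1. They were the only 2 of 9 platelet genes at 10 CPM. Both were variable with all libraries, against 5.52% of all genes, and neither was without replicate 1. The list summed to 315, 474, 742, 821 and 973 CPM, a ratio of 3.09, or 2.05 without replicate 1. Itga2b, Treml1, Gp1ba, Gp9, Tubb1, Gp6 and Gp1bb each had a mean of at most 1.56 CPM. The highest single value among these platelet-defining genes was 4.45 CPM, for Itga2b in replicate 4. The part of platelets in the values of Pf4 and Ppbp was not tested.

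Vascular genes gave a mixed result. Pecam1, an adhesion molecule of endothelium and leukocytes, had 3.96, 13.5, 14.3, 28.9 and 16.2 CPM in replicates 1 to 5 (SD 0.94, or 0.48 without replicate 1). Kdr, a VEGF receptor, had 10.9, 18.0, 32.2, 51.0 and 22.6 CPM in replicates 1 to 5 and Vwf, the clotting factor of endothelial cells, 5.69, 17.3, 24.0, 19.5 and 22.8 CPM in the same order. All 3 were in group 1 and lowest in replicate 1, and the SD of Vwf was 0.20 without that library. Flt1, another VEGF receptor that monocytes carry, was instead highest in replicate 1, with 62.4, 48.1, 34.4, 22.9 and 54.1 CPM in replicates 1 to 5 (SD 0.57, or 0.36 without replicate 4). The endothelial list summed to 184, 192, 194, 192 and 214 CPM, a ratio of 1.16, with 4 of 5 genes at 10 CPM variable (5.52% of all genes) and Eng, which macrophages also express, as its gene of most counts. Without replicate 1, 2 of the 5 were variable. Cldn5 had a count of 0 in all libraries, and Emcn, Tie1, Esam, Ramp2 and Tek had means of at most 0.408 CPM.

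Group 3 was small and of low abundance, with sums of 227, 116, 78.8, 145 and 233 CPM. It was highest in replicates 1 and 5 and lowest in replicate 3, where 9 of its 11 genes had their lowest value. Ksr2, a scaffold of the Ras pathway, led it with 49.5, 17.7, 11.3, 18.8 and 44.9 CPM in replicates 1 to 5. Dhcr7, the last enzyme of cholesterol synthesis, had 21.3, 7.10, 7.85, 12.9 and 16.0 CPM in replicates 1 to 5, and Aurkb, a kinase of mitosis, 19.7, 6.38, 6.26, 10.1 and 10.1 CPM in the same order. Aurkb was highest in replicate 1, and without it the SD was 0.34 in place of 0.62 and the mean 8.19 CPM, under the limit of 10.

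Summed levels were then compared over 34 gene lists with at least 3 genes at 10 CPM, some of which share genes. The highest library exceeded the lowest by at least 1.5-fold in 7 lists. With the most abundant gene of each list left out this held for 4, and without replicate 1 also for 4. Cholesterol synthesis had sums of 697, 603, 479, 391 and 545 CPM in replicates 1 to 5, with 8 of 17 genes at 10 CPM variable, against 5.52% of all genes. The count was 4 without replicate 1 and 4 without replicate 4. Sqle, the squalene epoxidase of this pathway, had 20.2, 37.2, 31.3, 13.7 and 34.2 CPM in replicates 1 to 5 (SD 0.58, or 0.38 without replicate 4), and replicate 4 was lowest. The list's ratio was 1.78, and 1.45 without replicate 4.

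**Figure D5:**
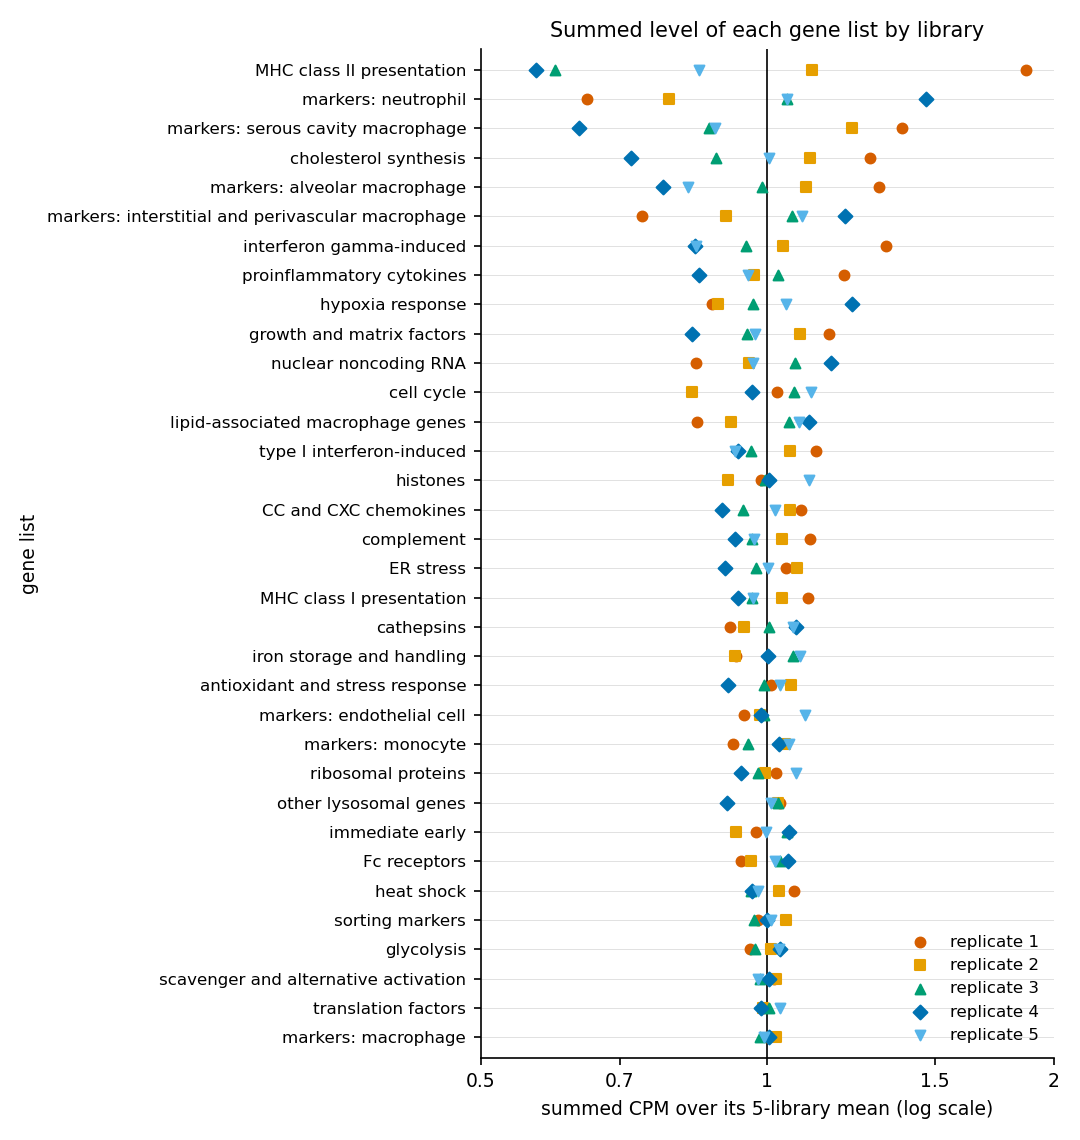
Summed CPM of each of 34 gene lists in each MAM library, divided by the mean of the list over the 5 libraries (log scale), ordered by the ratio of highest to lowest. MHC class II presentation lies at the top with a ratio of 3.27, and macrophage markers at the bottom with 1.04.

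Interferon gamma-induced genes were highest in replicate 1, with sums of 4385, 3419, 3125, 2768 and 2769 CPM. The ratio was 1.58, and 1.24 without replicate 1. Besides Cxcl9, 1 more of the 15 genes at 10 CPM was variable, Gbp2, a guanylate-binding protein of cell-autonomous defence, with 456, 353, 265, 167 and 232 CPM in replicates 1 to 5. These 2 of 15 are 13.3%, against 5.52% of all genes, and the count was 1 without replicate 1 and 1 without replicate 4. Irf1, a transcription factor early in the response, had 100.0 to 165 CPM. The type I interferon list differed less, by a ratio of 1.21. In both lists replicate 1 was highest and replicate 2 next.

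Of 17 chemokine genes at 10 CPM, 8 were variable (47.1%, against 5.52% of all genes), though the list's sums differed by a ratio of only 1.21. None of the 8 was among the 6 chemokines of most counts. Cxcl13, which attracts B cells, had 29.5, 22.6, 15.1, 6.23 and 2.75 CPM in replicates 1 to 5 and Ccl5, which attracts T cells, 49.0, 32.2, 25.6, 16.1 and 14.9 CPM in the same order. Both were highest in replicate 1. Ccl8, a ligand of several CC receptors, had 11.1, 19.2, 22.9, 20.8 and 39.0 CPM in replicates 1 to 5 and Cxcl3, which attracts neutrophils, 19.0, 14.6, 17.1, 20.7 and 47.2 CPM, and here replicate 5 was highest. Without it the SD of Cxcl3 was 0.21 in place of 0.64. The 3 chemokines of most counts, Ccl9, Ccl6 and Cxcl10, had SDs of 0.14, 0.26 and 0.25, that of Cxcl10 falling to 0.16 without replicate 1.

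Growth and matrix factors had 8 of 20 genes at 10 CPM variable, against 5.52% of all genes, in both directions. Without replicate 1, and also without replicate 4, the count was 5. Igf1, a growth factor for epithelium and other cells, had 42.0, 77.4, 97.0, 100.2 and 103 CPM in replicates 1 to 5, lowest in replicate 1. Its SD was 0.53, but 0.18 without that library, which is below the threshold. Mmp14, a membrane-bound protease that cleaves collagen, had 136, 165, 271, 307 and 262 CPM in replicates 1 to 5, and Mmp13, a secreted collagenase, 61.7, 86.1, 125, 104 and 178 CPM. For both genes replicate 1 was lowest and replicate 2 next. Tgfb1, by contrast, had 159 to 175 CPM (SD 0.05).

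Other lists differed less in sum. Of the ribosomal protein, translation factor, glycolysis, heat shock, Fc receptor, iron and MHC class I lists, 0 genes were variable, out of 48, 56, 17, 12, 6, 9 and 12 at 10 CPM. In a list of 6 to 17 genes the share over all genes, 5.52%, is under 1 gene, so a count of 0 there is near that share. For these 7 lists the ratios of highest to lowest sum lay between 1.05 and 1.19. The immediate early list, which responds to tissue handling, had sums of 5449, 5193, 5867, 5899 and 5582 CPM, a ratio of 1.14. Zfp36, an RNA-binding protein that destabilises cytokine transcripts, led it with 1027 ± 90.8 CPM (SD, n = 5). In the hypoxia list 2 of 12 genes were variable, Ndrg1, lowest in replicate 1, and Higd1a, highest in replicate 2. Without replicate 2, the SD of Higd1a was 0.35 in place of 0.58 and its mean 8.42 CPM, below both limits. Ndrg1 was described above, and the sums of the list differed by a ratio of 1.40. Gene lists for cathepsins, other lysosomal genes, histones and cell cycle had ratios of 1.17, 1.14, 1.21 and 1.33. Antioxidant and endoplasmic reticulum stress genes had ratios of 1.17 and 1.19. Of their genes at 10 CPM, 1 of 16 (6.25%) and 1 of 11 (9.09%) were variable, against 5.52% of all genes. These were Mt2, a metallothionein, with 68.6, 73.8, 49.0, 28.0 and 47.9 CPM in replicates 1 to 5 (SD 0.54, or 0.32 without replicate 4), and Asns, which makes asparagine. For complement, proinflammatory cytokines, nuclear noncoding RNA and the sorting markers the ratios were 1.198, 1.42, 1.38 and 1.08.

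A steady sum could hide variable genes. The scavenger and alternative activation list had a ratio of 1.05, but 6 of its 17 genes at 10 CPM were variable (35.3%, against 5.52% of all genes), and its median SD was 0.39, against 0.20. Marco, Retnla and Timd4 of this list were in group 2 and Cbr2 in group 1, so that they ran in opposite directions.

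Lists for macrophages of other compartments also differed between libraries. The alveolar macrophage list had sums of 760.4, 636, 573, 451 and 479 CPM, a ratio of 1.69 that was 1.21 without Marco. Siglecf and Car4, which mark alveolar macrophages, ran from 2.87 to 4.37 CPM and from 2.03 to 3.97 CPM. The interstitial and perivascular list had sums of 768, 942, 1106, 1256 and 1133 CPM, a ratio of 1.63 that was 1.46 without Pf4, when replicate 5 and not replicate 1 was the lowest. Of its genes at 10 CPM, 5 of 9 were variable, against 5.52% of all genes, and 3 of 9 without replicate 1. Lyve1, a hyaluronan receptor of perivascular macrophages, had 39.2, 96.2, 54.5, 68.6 and 25.9 CPM in replicates 1 to 5 (SD 0.71), highest in replicate 2 and lowest in replicate 5. Monocyte genes were even in sum, at a ratio of 1.15, although Spn, the sialoprotein CD43, had 11.8, 12.8, 21.3, 43.2 and 23.6 CPM in replicates 1 to 5 (SD 0.72, or 0.48 without replicate 4).

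Markers of cells outside the sort were mostly low. Neutrophil genes had sums of 134, 164, 218, 305 and 218 CPM in replicates 1 to 5, with 3 of 14 at 10 CPM. Csf3r, a receptor that monocytes share, made up most of this, with 88.1, 112, 153, 197 and 124 CPM in replicates 1 to 5. S100a8 and S100a9, abundant in neutrophils, reached at most 7.12 and 9.46 CPM, both in replicate 4, while Ly6g, which defines them, reached 1.39 CPM in replicate 3 and 0 in replicates 4 and 5. Elane was at 0 in all libraries. The sum of the list was lowest in replicate 1 and highest in replicate 4, as for group 1, and the part of neutrophils in that group was not tested. The 3 genes at 10 CPM were Csf3r, Mmp8, which is in group 1 and was described there, and Mmp9. Mmp9, a gelatinase, went the other way, with 19.9, 28.2, 12.5, 10.8 and 15.5 CPM in replicates 1 to 5 (SD 0.52), highest in replicate 2 and lowest in replicate 4.

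Fibroblast and smooth muscle genes had sums of 58.6, 14.3, 53.6, 18.8 and 40.5 CPM, with 0 of 13 at 10 CPM and Tagln as the gene of most counts. Col1a1, a chain of type I collagen, had 11.7, 0.187, 9.95, 0.255 and 1.76 CPM in replicates 1 to 5, so that replicates 1 and 3 were high, as they were for Sparc. Lum was at 0 in all libraries, and the part of these cells in the values of Sparc was not tested. Genes of T and NK cells had sums of 61.5, 51.3, 39.2, 27.5 and 32.6 CPM. Ccl5 was the gene of most counts, and Cd3e was at no more than 2.84 CPM. B and plasma cell genes had sums of 4.51, 10.6, 11.97, 27.4 and 13.7 CPM, a ratio of 6.09, or 2.60 without replicate 1, and Cd79a, part of the B cell receptor, was at 0.273 to 5.47 CPM. Lung epithelial genes had sums of 24.9, 39.6, 37.6, 25.9 and 25.4 CPM, with Hopx as the gene of most counts. The ratio was 1.59, or 4.75 without Hopx. Sftpc, the surfactant gene of alveolar type II cells, reached 7.45 CPM at most, in replicate 3.

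Tumour and epithelial genes had sums of 36.6, 18.6, 26.4, 19.5 and 25.98 CPM, with Esr1, the oestrogen receptor that macrophages also express, as the 1 gene of 12 at 10 CPM. Epcam, which defines epithelial cells, was at 0.491 to 0.777 CPM. Krt18, a keratin of simple epithelia, had 7.91 CPM in replicate 1 and at most 0.189 in the others. Krt5 and Cldn4 were at 0 in all libraries. Mast cell, basophil and eosinophil genes had sums of 3.96, 7.47, 5.38, 5.50 and 12.6 CPM and erythrocyte genes sums of 3.04, 4.85, 2.23, 2.04 and 2.05 CPM, all of the latter from Alas2 and Slc4a1. Their ratios were 3.18, or 1.88 without replicate 5, and 2.38, or 1.49 without replicate 2. The globin genes, of which 6 were listed, had a count of 0 in every library.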

How the data were processed

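RNA-seq was used of 5 MAM libraries, and the 5 normal lung libraries of the series were not used here. Per their processing notes, the authors aligned reads to mm10 (GRCm38) with TopHat2 2.0.13 and made the deposited counts with HTSeq 0.6.1 from uniquely mapped reads on UCSC RefGene models, and used DESeq2 1.6.3. The deposited FPKM values were made by the authors with Cufflinks 2.2.1. The strand setting is not given in the sources used here, so overlapping and antisense genes are uncertain. Genes of the mitochondrial genome are not in the gene models.

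Lines naming no gene (no feature, mean 40.7%; not unique, 15.3%; ambiguous, 0.494%) and Rn45s were dropped. CPM, the SD of log2(CPM + 1), pairwise differences, principal components, sums over gene lists and average-linkage grouping of the 200 genes of highest SD into 6 groups were computed with Python 3.11.15, pandas 2.3.3, numpy 2.4.6, scipy 1.17.1 and matplotlib 3.10.9. Alternatives used edgeR 4.0.16 and DESeq2 1.42.0 in R 4.3.3. The computation was tested on simulated data. A gene was called variable at an SD of at least 0.5 and a mean of at least 10 CPM, and groups of at least 10 genes were described. A count of 3, the limit given to a count of 0, was 0.0400 to 0.0630 CPM. Reads carried no molecular identifiers and copies made by PCR are not independent, so such limits cover counting error alone. No p-values were computed, since the libraries form 1 group. Gene overlaps were read from GENCODE M21 and promoters from RefSeq.

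Genes were named by rule: the 20 of highest mean CPM, the 25 of highest SD, the most abundant and 3 most variable of each list, the 5 most abundant of each group, and the marker and sorting genes. Some genes that the rule names are not reported here. Any other named gene was chosen after its values were seen. The libraries and lists were chosen with earlier results of these data known.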

Additional observations from a re-analysis of the deposited data

Results flagged for a closer look

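Of 237 values examined, 9 had 1 library far from the other 4 by Dixon's ratio. Genes and list sums were taken as log2(CPM + 1), and measures of whole libraries, such as the counts used, on their own scale. The limit was 0.71, which about 5% would pass by chance. Many of the genes were named for a high SD, so that share is only a rough guide. Replicate 1 stood apart above the others for Caml (0.824) and Itgax (0.769). It stood apart below them for Vwf (0.763), for Xist (0.868) and, through Xist alone, for the sum over Y-linked genes and Xist (0.868). Replicate 1 was also apart above the others for H2afy (0.82). Replicate 2 stood apart above them for Treml4 (0.786), replicate 5 above the others for Ptprc (0.837), and replicate 4 below them for the summed other lysosomal genes (0.836). Lyz2, the gene of most counts in that sum, was itself lowest in replicate 4. Without Lyz2 the ratio of highest to lowest sum was 1.07 in place of 1.14. The cause was not tested.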

How the results depend on the processing

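A value was taken as moved when an alternative changed it by over 1.5 times or, for the share of the first 20 genes, by at least its SD between libraries. The number of variable genes (439) became 193 with a pseudocount of 5, 2368 and 77 with a minimum mean CPM of 1 and 50, 3151 with no filter and 17 at an SD of at least 1, and was 388 to 539 with a library left out. Replicate 1, farthest in 168 genes, was farthest in 101, 616, 51 and 802 under those first 4 settings. With a library left out the leading library had 155 to 271 genes, and was replicate 2 without replicate 1 and replicate 4 without replicate 3. Of the 100 most variable genes, 51 were kept by median absolute deviation and 58 to 83 with a library left out. The share of the first 20 genes (13.3%) was 11.6% with Rn45s kept, 75.7% by FPKM over all genes, where short RNAs led and 0 of the 20 were kept, and 23.2% by FPKM at 10 CPM. The largest group (99 genes) had 61 under complete linkage, 44 from 100 genes and 174 from 400. The lists that differed (7) were 4 without their most abundant gene and 4 to 7 with a library left out. The median SD (0.20) was 0.15 to 0.27 over all settings, and 0.19 to 0.20 with a library left out. The first component (43.3%) held 32.4% with no filter, 33.9% and 57.6% with a minimum mean CPM of 1 and 50, and 45.7% to 53.3% with a library left out. Of 180 named genes with an SD, 10 moved by scaling, pseudocount or FPKM and 83 by leaving out a library. FPKM at 10 CPM, the alternatives for the first component, and the sums, list counts and single-gene SDs with a library left out were chosen after seeing the data.

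No paired analysis was possible because the libraries form 1 group with no pairing named in the labels. The 5 libraries are pools of 2 to 4 mice from 1 cell line at 1 interval after injection, so variation between mice, stages or tumour lines was not measured. Sorting, dissection and batch cannot be told apart from differences between animals. Where a library stood apart, the cause was not tested.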

Other observations

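Treml4, a receptor of the TREM family, had 26.9, 49.1, 22.8, 26.8 and 24.4 CPM in replicates 1 to 5, with replicate 2 apart and an SD of 0.11 without it. H2afy, which encodes a macro-domain histone variant, had 125, 101, 99.5, 103 and 104 CPM in replicates 1 to 5. Il6, an inflammatory cytokine, had 32.0, 20.2, 24.2, 5.69 and 16.5 CPM in replicates 1 to 5 (SD 0.88, or 0.39 without replicate 4) and belonged to group 2, while Asns had 12.98, 5.04, 24.8, 16.6 and 15.8 CPM in replicates 1 to 5 (SD 0.78, or 0.37 without replicate 2) and belonged to group 1.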
